A study of Mus musculus with 6 samples.

Results

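Collagens and their companion matrix proteins form the fibres, sheets and capsule that hold the spleen together. Transcripts of 50 such genes, 40 collagen chain genes and 10 genes of other matrix proteins, were compared between the spleens of control and lead (Pb) exposed mice. The members were every probe with a single gene symbol that names a collagen chain (Col, a number, a, a number) or one of Fn1, Dcn, Lum, Bgn, Sparc, Postn, Lox, Loxl1, Eln and Nid1. Fbn1, also in the rule, had no probe with that symbol. The rule gave 64 probes of the 34949 used, 14 genes having 2 probes and 36 having 1. A further probe for Col16a1 lay in the array rows left out, and a probe listed for Col9a2 together with another gene was not used. The rule uses names and not values, but the members were chosen with earlier results of these data known.

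The tissue was whole spleen of female BALB/c mice at 21 days of age. In the Pb group 3 animals had been exposed to 0.1 mM Pb from gestation day 8, and the control group was 3 animals labelled only as controls. RNA of each animal was hybridised to 1 CodeLink mouse whole genome array in a single colour. The labels name no route of exposure and do not say whether animals shared a litter, so the p-values cover these animals alone. With 1 array per animal, the spread they measure joins that of animal, array and position correction.

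A collagen molecule is a triple helix of chains. Fibrillar collagens pack into cables, network collagens such as type IV make the basement membrane under endothelium, and type VI makes beaded filaments around cells. In the spleen, reticular fibroblasts lay down fine fibres rich in type III collagen, on which blood is filtered and lymphocytes move, while the capsule and its inward strands hold coarser type I collagen and elastic fibres. Lysyl oxidases join the chains by crosslinks, and proteoglycans such as decorin set fibre thickness.

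Of the 6 arrays, 5 entered the comparison. The values of Pb replicate 3 had no relation to those of the controls, with r from -0.10 to -0.06 across the 64 member probes, against 0.954 to 0.978 between controls. Pb replicate 2 drifted along the array rows and was corrected for position. After that its values were still wider than those of the others, with a median absolute deviation of 0.594 on the log2 scale against 0.238 to 0.295. All levels here are log2 intensities after the correction, where about 0 is the middle of an array, and all differences are log2 Pb minus control. A difference of 1 is a doubling.

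Type IV collagen chains are encoded in head-to-head pairs of genes. The windows from 250 bases before to 50 bases after the start of Col4a1 and Col4a2 are printed because they overlap. Each chain has a value of its own below. Both lie on chromosome 8 of GRCm38.p6 in RefSeq, Col4a1 at chr8:11312777-11313076 on the minus strand and Col4a2 at chr8:11312555-11312854 on the plus strand. They share 78 bases, chr8:11312777-11312854, in capitals. The windows of Col4a5 (chrX:141475169-141475468, plus strand) and Col4a6 (chrX:141474027-141474326, minus strand) do not overlap and lie 842 bases apart. In these the capitals mark each match of CCAAT or GGGCGG on either strand. Each is given 5′ to 3′ on the strand of its gene.
Col4a1: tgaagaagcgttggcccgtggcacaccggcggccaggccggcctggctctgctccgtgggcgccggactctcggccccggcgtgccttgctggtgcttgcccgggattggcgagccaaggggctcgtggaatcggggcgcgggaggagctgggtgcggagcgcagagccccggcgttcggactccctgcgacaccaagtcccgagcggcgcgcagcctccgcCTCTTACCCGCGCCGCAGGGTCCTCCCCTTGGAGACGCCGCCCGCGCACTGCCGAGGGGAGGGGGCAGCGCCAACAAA
Col4a2: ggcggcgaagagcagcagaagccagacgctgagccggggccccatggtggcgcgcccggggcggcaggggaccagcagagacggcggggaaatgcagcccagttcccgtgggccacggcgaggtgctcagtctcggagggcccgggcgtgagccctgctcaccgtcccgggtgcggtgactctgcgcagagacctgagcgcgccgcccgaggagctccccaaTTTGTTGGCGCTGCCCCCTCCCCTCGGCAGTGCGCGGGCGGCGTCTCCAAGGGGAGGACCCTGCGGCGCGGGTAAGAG
Col4a5: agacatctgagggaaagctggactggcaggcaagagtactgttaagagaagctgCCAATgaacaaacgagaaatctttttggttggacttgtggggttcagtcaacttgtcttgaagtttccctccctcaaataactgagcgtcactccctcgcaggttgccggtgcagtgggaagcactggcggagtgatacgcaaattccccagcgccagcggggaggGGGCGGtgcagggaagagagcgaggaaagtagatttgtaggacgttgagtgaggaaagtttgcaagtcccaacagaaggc
Col4a6: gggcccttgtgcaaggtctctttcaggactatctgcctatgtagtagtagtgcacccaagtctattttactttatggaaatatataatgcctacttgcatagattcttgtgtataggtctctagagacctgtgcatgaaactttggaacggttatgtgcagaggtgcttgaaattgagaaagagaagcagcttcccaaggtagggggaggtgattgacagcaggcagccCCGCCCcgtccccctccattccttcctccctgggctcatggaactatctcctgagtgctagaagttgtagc
CCAAT, the box read by the factor NF-Y, matched 1 time each in the windows of Col4a1, Col4a2 and Col4a5 and not in that of Col4a6. GGGCGG, the core of a site for Sp1, matched 1 time in Col4a1, 3 times in Col4a2 and 1 time in each of the other windows. The match in Col4a1 lies in the 78 shared bases and is the same site as 1 of the 3 in Col4a2. Among all 32851 RefSeq windows 37.4% held CCAAT and 35.7% held GGGCGG on either strand. Windows were found for 36 of the 50 member genes. Of these genes 14 held CCAAT and 22 held GGGCGG. A match is a description and not a site in use.

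No member changed past the adjusted threshold of 0.05. Of the 64 member probes 49, for 44 genes, passed the filter on low values and were tested. In limma 0 of the 49 passed, and the smallest adjusted p was 0.622. Over all 24464 probes tested 15 passed, which is 0.0613%, a background at which 0 of 49 does not stand apart. At an unadjusted p under 0.05 there was 1 higher member, Col4a5, where the background was 3.89%, and 1 lower member, Col6a1, where it was 3.32%. No member differed by as much as a doubling. The tested differences ran from -0.88 (Col6a6) to 1.00 (Col6a3), that is from 0.543-fold to 1.99-fold, while 745 of the 24464 probes tested (3.05%) differed by 1 or more.

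The precision of these values was enough to bound most tested members only if the position correction is taken as exact. Uncertainty of that correction, whose size is given below, is not part of the intervals. For 37 of the 49 tested probes (75.5%) the 95% confidence interval lay within a doubling and a halving, against 70.1% of all probes tested. For 13 of the 49 it lay within a 1.5-fold change in either direction. These intervals are not adjusted for the number of probes, and the median distance from their centre to their end was 0.54. The median difference over the 64 member probes was 0.03, beside 0.03 over all probes.

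**Figure D1:**
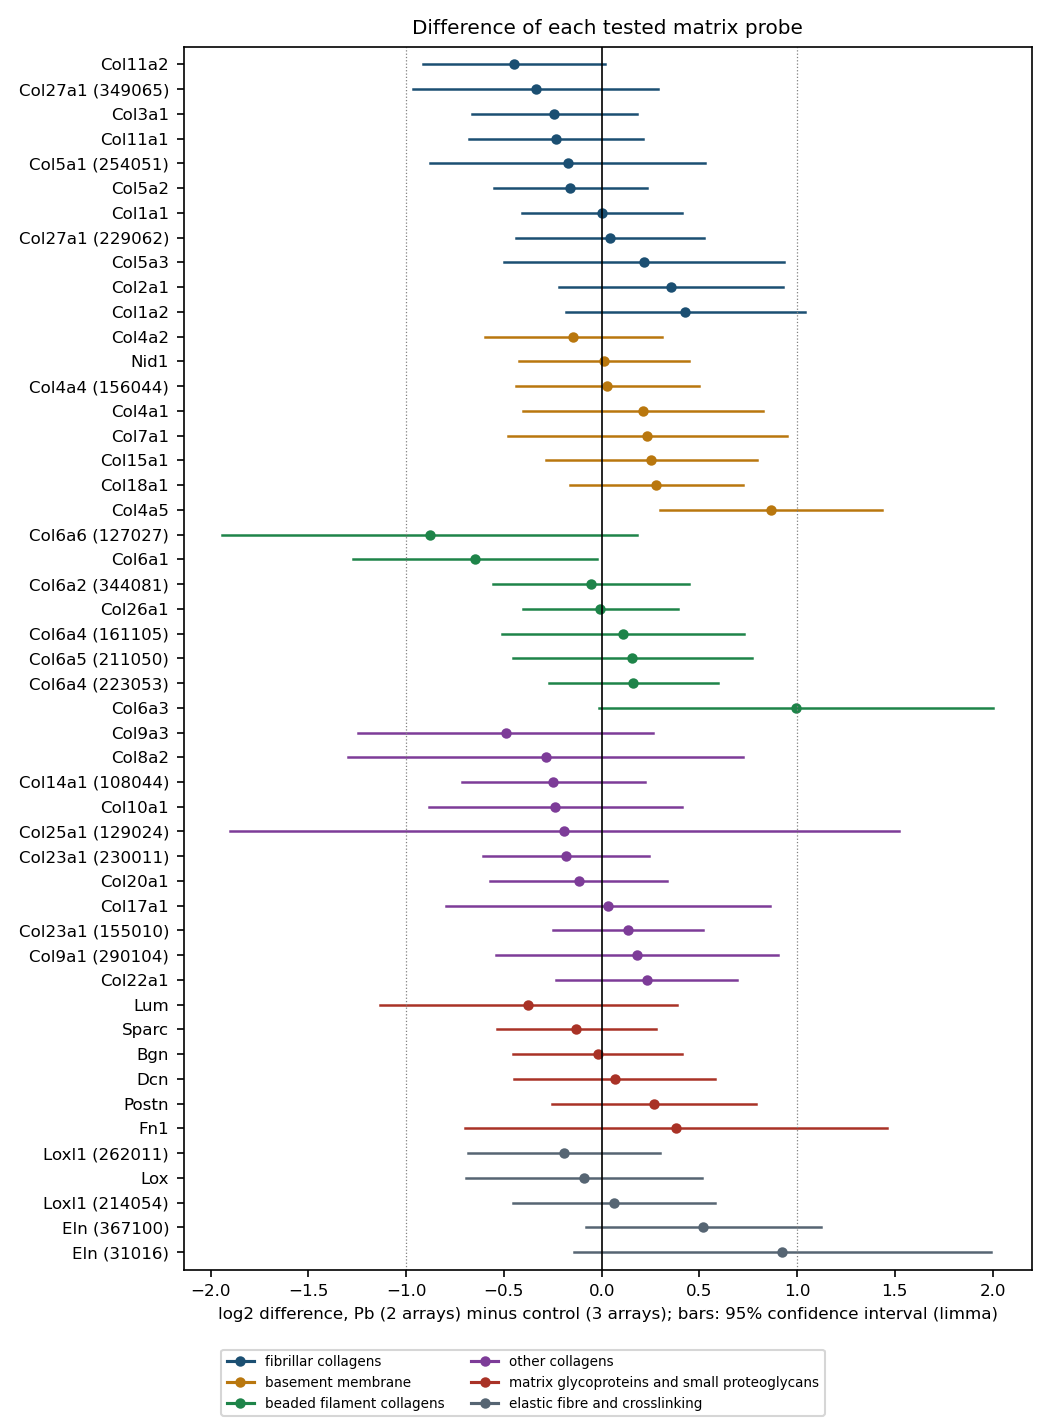
Log2 difference, Pb minus control, of the 49 tested member probes (dots) with 95% confidence intervals from limma (bars), coloured by role; a number beside a name is the probe where a gene has several, and dotted lines mark a doubling and a halving. The intervals of Col4a5 and Col6a1 leave out 0, and the widest bar is that of Col25a1.

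Fibrillar collagens, the cables of reticular fibres and capsule, had no member past the threshold. Of their 13 probes 11 were tested, 0 rose and 0 fell past the adjusted threshold. Col3a1, the chain of reticular fibre collagen, was at 6.07, 5.84 and 5.82 in control replicates 1 to 3 and at 5.69 and 5.64 in Pb replicates 1 and 2. Both Pb spleens lay just under the lowest control. The difference was -0.24 (95% interval -0.66 to 0.18, limma adjusted p = 0.658). It was negative in all 17 alternatives, which reuse the same arrays, so the shared sign is a weak check. Among them are -2.18 without position correction and -5.10 in all 6 arrays as deposited, which takes in the unrelated values of Pb replicate 3.

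Col1a1, a chain of type I collagen in the capsule, was at 2.45, 2.58 and 2.62 in controls and at 2.48 and 2.63 in Pb. Pb replicate 2 lay just over the highest control and Pb replicate 1 among the controls. The difference was 0.00 (95% interval -0.41 to 0.41). Its partner chain Col1a2 was at 2.48, 2.11 and 2.20 in controls and at 2.38 and 3.01 in Pb. Only Pb replicate 2 was above the controls, and the difference was 0.43 (95% interval -0.18 to 1.04).

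Type V collagen starts fibril assembly. Col5a1 (probe 254051) was at 3.44, 3.35 and 3.65 in controls and at 2.87 and 3.74 in Pb, with Pb replicate 1 under and Pb replicate 2 over all controls. Col5a2 was at 3.53, 3.63 and 3.60 in controls and at 3.40 and 3.45 in Pb, under the controls in both. Its difference was -0.16 (95% interval -0.55 to 0.23). Col27a1 (probe 349065), a chain known from cartilage, was at 3.36, 3.07 and 2.80 in controls and at 3.00 and 2.48 in Pb, and the groups overlapped.

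The cartilage chains Col2a1, Col11a1 and Col11a2 differed by 0.35, -0.23 and -0.45, and Col5a3 by 0.22. For Col11a2 both Pb arrays, at -1.27 and -1.55, lay under the controls at -1.03, -0.79 and -1.07 (limma adjusted p = 0.622). Of the 13 fibrillar probes 4 lay below all controls in both Pb arrays and 0 above, where 11.9% and 13.0% of all probes did, and the difference from that share was not tested.

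Basement membrane members, which line vessels and sinuses, held the member with the smallest p. Of 11 probes 8 were tested and 0 passed. Col4a5, a chain of type IV collagen encoded on the X chromosome, was at -0.83, -1.16 and -1.48 in controls and at -0.33 and -0.26 in Pb. Both Pb spleens were above all controls, by 0.83 and 0.90 over the control mean. The difference was 0.87 (SE 0.23, 95% interval 0.30 to 1.43). The limma adjusted p of 0.622 did not pass, beside an unadjusted p of 0.00968. The 16 probes beside it on the array had median differences of -0.01 and -0.14 in Pb replicates 1 and 2. The value was 0.80 without position correction and between 0.71 and 2.11 over all settings tried. The 2.11 came from all 6 arrays as deposited, which takes in the unrelated values of Pb replicate 3. Leaving out control replicate 1 gave 1.03.

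Col4a6, encoded beside Col4a5, lay under the filter on low values and was not tested. Its probe was at -2.85, -2.92 and -2.84 in controls and at -3.27 and -3.43 in Pb, lower in both. The probe for Col4a3 was also under the filter, with control values that spread from -4.65 to -1.76. Col4a4 (probe 156044), the third chain of the molecule that holds Col4a3 and Col4a5, was at 0.38, 0.25 and 0.63 in controls and at 0.38 and 0.51 in Pb, inside the control range.

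Col4a1 and Col4a2, the pair whose windows share 78 bases and whose products make the common type IV molecule, showed no change past the threshold. Col4a1 was at 3.72, 3.94 and 3.51 in controls and at 3.64 and 4.24 in Pb, above the controls only in replicate 2. Col4a2 was at 3.18, 3.20 and 3.49 in controls and at 3.21 and 3.08 in Pb. Their differences were 0.21 (95% interval -0.40 to 0.82) and -0.14 (-0.60 to 0.31).

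Nid1, which ties laminin to type IV collagen, was at 2.24, 1.98 and 2.01 in controls and at 2.01 and 2.17 in Pb, a difference of 0.01 (95% interval -0.42 to 0.45). Col15a1, Col18a1 and Col7a1 differed by 0.25, 0.28 and 0.23. For Col18a1, whose tail is the source of endostatin, both Pb arrays (0.26 and 0.36) lay above the controls (0.08, -0.16 and 0.16). Its 95% interval ran from -0.16 to 0.72. The 15 probes beside it had median differences of 0.55 and 0.18 in Pb replicates 1 and 2, the first of them above the 0.23 of Col18a1 itself.

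The chains of type VI collagen, which join in a common molecule, had differences of both signs, 0 of 8 tested probes past the adjusted threshold. Col6a1 was at 1.72, 1.57 and 1.12 in controls and at 1.03 and 0.60 in Pb, lower in both Pb spleens than in any control. Its difference was -0.65 (SE 0.25, 95% interval -1.27 to -0.03). The limma adjusted p of 0.622 did not pass, beside an unadjusted p of 0.0436. In Pb replicate 2 the 11 probes beside it had a median difference of -0.55, and the part of that in its own value was not tested.

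Col6a2 (probe 344081) was at 3.44, 3.82 and 3.42 in controls and at 3.39 and 3.62 in Pb, a difference of -0.06 (95% interval -0.56 to 0.45). Col6a3 was at 1.42, 1.00 and 0.97 in controls and at 1.45 and 2.80 in Pb. Pb replicate 1 was above the highest control by a small margin, and Pb replicate 2 carried most of the difference of 1.00 (95% interval -0.01 to 2.00, limma adjusted p = 0.622). In that array the neighbouring 14 probes had a median difference of 0.48. The sign of Col6a3 turned without position correction, to -0.53.

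Col6a6 (probe 127027), a chain that can stand in for Col6a3, was at 0.34, 0.45 and 0.46 in controls and at 0.30 and -1.23 in Pb. Here too Pb replicate 1 lay next to the controls and Pb replicate 2 far from them, and the difference was -0.88 (95% interval -1.94 to 0.18). Its second probe lay under the filter. Col26a1, grouped here with the beaded filament chains though it is a separate small collagen, was at 2.11, 2.01 and 1.96 in controls and at 1.99 and 2.05 in Pb. Both probes of Col6a4 and the tested probe of Col6a5 differed by 0.11, 0.16 and 0.16.

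Fibril-associated, short chain and membrane collagens made up the other 18 probes, 11 of them tested, and 0 passed. Col14a1 (probe 108044), which sits on the surface of fibrils, was at 4.69, 5.01 and 4.95 in controls and at 4.52 and 4.76 in Pb. Its difference was -0.25 (95% interval -0.72 to 0.22). Col17a1, a membrane collagen known from epithelial attachment, was at 4.49, 4.15 and 4.48 in controls and at 4.94 and 3.87 in Pb. Here the Pb animals lay on opposite sides of the controls, and the mean difference of 0.03 hid that gap.

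Col22a1, known from tissue junctions, was at 2.75, 2.52 and 2.80 in controls and at 3.06 and 2.78 in Pb. Col23a1, a membrane collagen, had probe 155010 at 2.39, 2.34 and 2.35 in controls and at 2.49 and 2.50 in Pb, above all controls. Its other probe, 230011, was at 1.57, 1.54 and 1.60 in controls and at 1.53 and 1.25 in Pb, below all controls. The probes of this gene thus separated the groups in opposite directions, with differences of 0.13 and -0.18. Col9a3, Col8a2, Col10a1 and Col20a1 differed by -0.49, -0.29, -0.24 and -0.12, and the tested probes of Col25a1 and Col9a1 by -0.19 and 0.18.

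Glycoproteins and small proteoglycans of the stroma had 6 of 6 probes tested and 0 past the threshold, and the groups overlapped at each of the 6. Sparc, which binds collagen during fibre assembly, was at 6.71, 6.68 and 6.52 in controls and at 6.54 and 6.47 in Pb. Bgn was at 5.46, 5.54 and 5.75 in controls and at 5.54 and 5.59 in Pb, and Dcn at 4.10, 4.48 and 4.01 in controls and at 4.18 and 4.35 in Pb. These proteoglycans, biglycan and decorin, bind collagen fibrils, and each of their Pb values fell inside the control range. The differences were -0.13 (95% interval -0.54 to 0.28) for Sparc, -0.02 (-0.45 to 0.41) for Bgn and 0.07 (-0.45 to 0.58) for Dcn.

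Fn1, fibronectin, was at 4.33, 4.09 and 2.95 in controls and at 4.42 and 3.92 in Pb. Control replicate 3 stood apart, which gave a control SD of 0.74 and a wide interval (difference 0.38, 95% interval -0.70 to 1.46). Lum, another proteoglycan of fibrils, and Postn, a protein of growing and healing matrix, differed by -0.37 and 0.27. In both genes the groups overlapped in level: Lum was at -1.05, -0.16 and -0.68 in controls and -1.24 and -0.76 in Pb, and Postn at 0.35, 0.83 and 0.57 in controls and 0.72 and 0.98 in Pb.

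Eln, the elastin of elastic fibres in capsule and arteries, was higher at both of its probes after position correction, without passing. Before correction probe 31016 was below the control mean, by log2 differences of -0.12 and -1.19 in Pb replicates 1 and 2. Probe 367100 then differed by 0.85 and -0.07. The sign of its reported difference turned in 1 of 17 alternatives, all 6 arrays as deposited. Probe 367100 was at 4.18, 3.51 and 3.63 in controls and at 4.26 and 4.32 in Pb, above all controls. Probe 31016 was at -0.03, -0.10 and 0.36 in controls and at 0.27 and 1.73 in Pb, with overlap. The differences were 0.52 (95% interval -0.08 to 1.12) and 0.92 (-0.14 to 1.99), each with a limma adjusted p of 0.622. Around probe 31016 the 17 neighbouring probes were at a median of 0.74 in Pb replicate 2, and around probe 367100 the 9 neighbours at 0.38.

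Lox, a lysyl oxidase that crosslinks collagen and elastin, was at 1.21, 0.87 and 0.83 in controls and at 1.18 and 0.58 in Pb, a difference of -0.09 (95% interval -0.69 to 0.52). Loxl1, which acts on elastin, had probe 262011 at 4.57, 4.33 and 4.43 in controls and at 4.46 and 4.05 in Pb. Its probe 214054 was at 1.92, 1.81 and 2.04 in controls and at 2.23 and 1.74 in Pb. Here the Pb animals fell to either side of the control range at that probe.

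**Figure D2:**
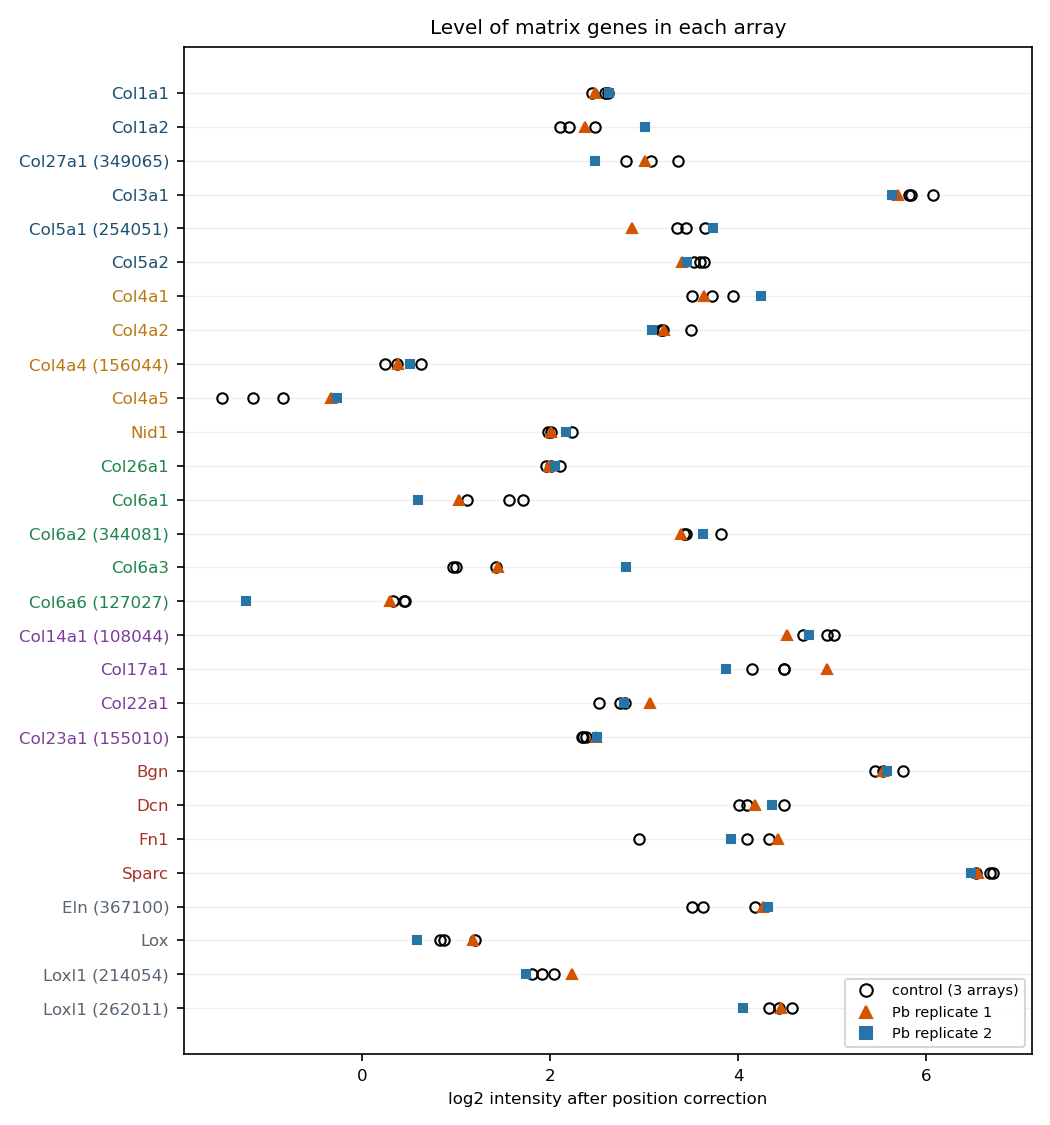
Log2 intensity after position correction in each of the 5 arrays for 28 member probes: the brightest of each role, those that separated the groups by 1.5-fold or more, Col1a1 and Col1a2. Open circles are controls, triangles Pb replicate 1 and squares Pb replicate 2, and name colours group the roles as ordered in the text. Both Pb arrays lie above the controls for Col4a5 and below them for Col6a1, whereas for Col6a3 and Col6a6 the square alone lies far off.

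Members whose groups do not overlap were counted beside the share of all probes that did the same. Among the 64 member probes, 5 had both Pb values over every control (Col4a5, Col18a1, Col6a3, Eln and Col23a1), where 13.0% of all probes did. Both lay below for 8 of 64 (Col3a1, Col5a2, Col11a1, Col11a2, Col6a1, Col6a6, Col4a6 and Col23a1), where 11.9% did. Taken singly, Pb replicate 1 was above all controls at 18 and below at 15 of the 64 probes, beside 26.3% and 28.7% of all probes. Pb replicate 2 was above at 15 and below at 23, beside 36.5% and 29.5%.

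By role the shifts were small and did not share a direction. The median over probes of Pb replicates 1 and 2 was -0.07 and -0.13 for the fibrillar collagens, -0.04 and 0.22 for the basement membrane, and 0.07 and 0.02 for the beaded filament chains. It was 0.12 and -0.18 for the other collagens, -0.03 and 0.07 for the glycoproteins and proteoglycans, and 0.21 and -0.18 for the elastic fibre and crosslinking genes. Controls themselves ranged from -0.11 to 0.27 in the glycoprotein and proteoglycan role, the widest control range of the 6 roles. Over all 64 probes the median shift was 0.02 and 0.01 for the Pb arrays and from -0.03 to 0.02 for the controls.

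**Figure D3:**
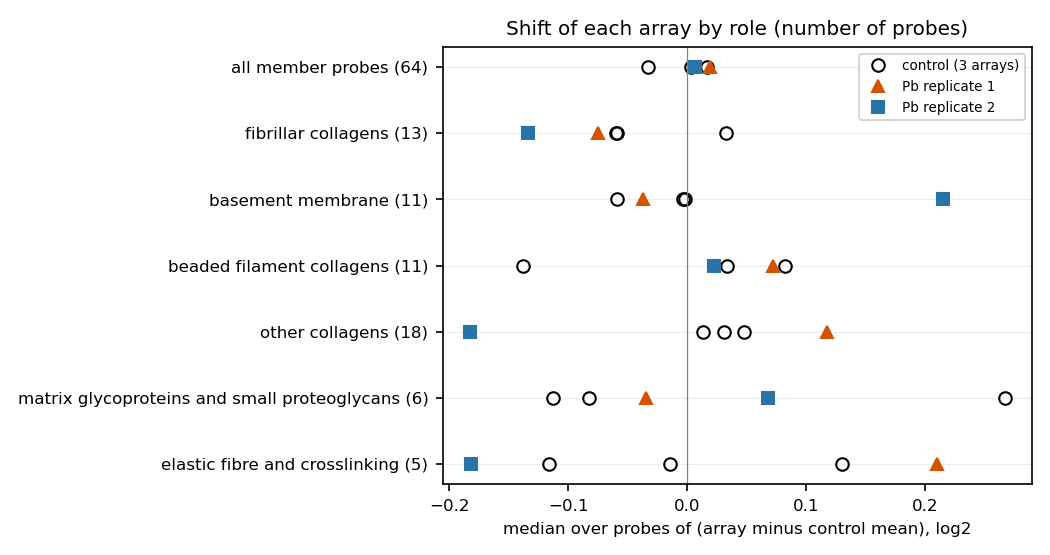
Median over the probes of each role of the log2 level in an array minus the control mean, for 3 controls (open circles), Pb replicate 1 (triangles) and Pb replicate 2 (squares); the number of probes is in brackets. In the other collagens and the elastic fibre role the Pb animals lie on opposite sides of 0, at 0.12 and -0.18 and at 0.21 and -0.18.

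Genes with 2 probes were compared for the sign of their differences. Of 14 such genes 7 had differences of the same sign at both probes. In 9 of the 14, 1 or both probes lay under the filter. Several of the differences were near 0, so the count of shared signs cannot tell how far a single probe can be trusted. Both probes were tested in 5 genes, and 2 of these, Eln and Col6a4, had the same sign after position correction. Under the filter lay 15 member probes, with differences from -0.75 to 0.73 and a median control SD of 0.501, against 0.174 for the tested members. Col4a3, Col4a6, Col8a1, Col13a1, Col19a1 and Col24a1 had no tested probe.

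The size of the position correction bears on every value of Pb replicate 2. Among the 64 member probes it removed between -3.76 and 3.07 from that array, with a median size of 1.78, against 0.34 in Pb replicate 1 and 0.14 in controls. Before correction Col3a1 was 4.05 and Col1a1 3.15 below the control mean in Pb replicate 2 (log2 differences of -4.05 and -3.15), and after it they differed by -0.27 and 0.08. Since the controls are part of the reference it was fitted against, closeness to them is partly built in. Without it the sign turned for 22 of the 49 tested members, 26 differed by 1 or more, and 0 passed the adjusted threshold.

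**Figure D4:**
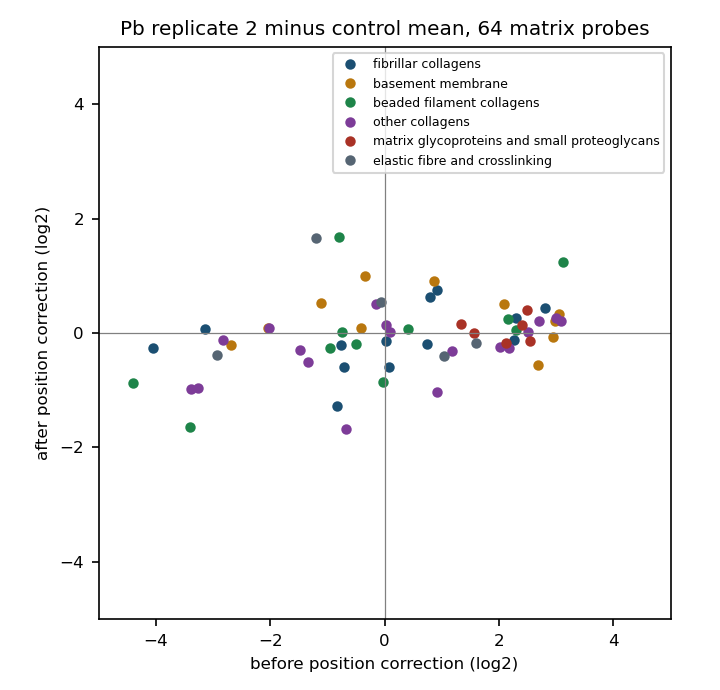
Log2 level of Pb replicate 2 minus the control mean for the 64 member probes before (x axis) and after (y axis) position correction, coloured by role. Before correction the values run from below -4 to above 3, and after it all lie between -1.68 and 1.67.

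The correction in Pb replicate 1 was smaller than in Pb replicate 2 but larger than in controls, and it moved single members far. Col6a6 (probe 127027) went from -1.56 to -0.12 against the control mean, and Col22a1 from -0.56 to 0.37. When Pb replicate 1 stood alone for the Pb group, keeping the corrected values and assumed to vary as the controls do, 0 members passed and the named member probes differed by -0.60 to 0.83. With Pb replicate 2 as the lone array 4 members passed, Eln (probe 31016, 1.66), Col6a3 (1.67), Col6a6 (-1.64) and Col9a3 (-0.97), with adjusted p from 0.00863 to 0.0385 in limma. In that setting 2805 of all probes passed, on the array with the wider values.

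Genes that make, cut, bind or regulate collagen were counted from named lists that are not members. Of 31 probes for collagen processing enzymes and chaperones 25 were tested and 0 passed. P4hb, part of the enzyme that hydroxylates proline in collagen, differed by 0.14 and Crtap, which helps modify a proline of type I collagen, by -0.80 (95% interval -1.77 to 0.16). Crtap was at 4.58, 4.78 and 4.66 in controls and at 4.55 and 3.19 in Pb, with Pb replicate 1 just under the controls and Pb replicate 2 far under them. The median over the 31 probes was -0.09, beside 0.03 over all probes.

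Matrix turnover genes numbered 20 probes, 16 tested and 0 passed, with a median of -0.06. Timp3, an inhibitor of matrix metalloproteinases, differed by -0.22 and Mmp14, a membrane protease that cuts collagen, by -0.41 (95% interval -0.90 to 0.09). Collagen receptors numbered 14 probes, 11 tested and 0 passed, with a median of 0.06. Itgav, a chain of integrins, differed by 0.11 and Itgb1, the partner of the collagen-binding integrin chains, by 0.39 at probe 400029 and -0.12 at probe 322072. Mrc2, a receptor that takes up collagen and stands in both lists, is named after its values were seen. It was at -1.78, -1.62 and -2.43 in controls and at -0.98 and 0.02 in Pb, a difference of 1.46 (limma adjusted p = 0.622). Its control mean of -1.94 was under the filter level of -1.557, so it was tested only through its Pb values and the difference is a description.

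In the TGF-beta pathway, which drives collagen transcription, 15 of 18 probes were tested and 0 passed, with a median of -0.04. Tgfb1 differed by -0.17 and Ccn2, a target of the pathway, by -0.18. Among laminins, fibulins and other structural genes 28 of 39 probes were tested and 0 passed, with a median of -0.01. Lama1, a laminin chain, differed by 0.23 and Fbln5, needed for elastic fibres, by -0.09.

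Markers of the cells that make matrix were present and did not pass either. Of 18 probes for splenic fibroblasts and reticular cells 17 were tested and 0 passed, and their summed intensity was 319.2 to 361.0 in controls and 369.6 and 305.1 in Pb. Ccl19 and Cxcl13, chemokines of reticular cells, differed by -0.14 and -0.11, and of the 18 probes 9 were higher and 9 lower. The sum was 64.5 to 101.8 in controls and 73.6 and 95.9 in Pb for smooth muscle and pericyte genes (10 probes, 8 tested, 0 passed). The brightest, Tagln, was at 0.02 and the probes of Acta2 at 0.38 and 0.07. Of the 10 probes 6 were higher and 4 lower, with quartiles of -0.74 and 0.31. The lower ones included Cnn1 at -1.50 (95% interval -3.06 to 0.06) and Cspg4 at -0.90. For endothelium (12 probes, 10 tested, 0 passed) the sum was 149.2 to 160.1 in controls and 154.2 and 131.4 in Pb. Stab2 was at -0.08 and Kdr at -0.28, and of the 12 probes 3 were higher and 9 lower. The higher ones included Pecam1 at 0.32. In whole tissue, fewer cells of a type and less RNA per cell cannot be told apart.

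Markers of another tissue differed between the groups. Probes for pancreatic acinar genes, 16 in all, summed to 17.95 to 19.7 in controls and to 187.1 and 269.0 in Pb, and 10 of 15 tested passed, all higher. The filter uses the mean over the 5 arrays, and 6 of the 15, 5 of the 10 that passed among them, had a control mean under its level and entered through their Pb values. Their call is therefore no support by itself, and the summed levels are given as a description. The part of such tissue in the matrix values was not tested. The sums for adipocytes were 35.7 to 41.05 in controls and 46.0 and 52.0 in Pb (8 probes, 6 tested, 0 passed), with Cidec at 0.04 and Fabp4 at 0.54. For mesothelium and capsule they were 6.76 to 10.3 in controls and 9.17 and 9.77 in Pb (7 probes, 5 tested, 0 passed), with the 2 probes of Upk1b at 0.49 and -0.34. For skeletal muscle they were 6.41 to 8.33 in controls and 8.06 and 8.05 in Pb (16 probes, 4 tested, 0 passed), with Mylpf at 0.31 and the tested probes of Ryr1 at -0.07 and -0.12.

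Markers of blood cells, the bulk of the spleen, were also counted, and 0 passed. Erythroid genes summed to 300.0 to 449.1 in controls and to 346.3 and 459.9 in Pb, with Alas2 at -0.06 and Slc4a1 at 0.38. B cell genes summed to 120.5 to 132.9 in controls and to 133.1 and 132.5 in Pb, with Cd79b at 0.14 and Ms4a1 at -0.03. T cell genes summed to 70.1 to 86.8 in controls and to 87.0 and 69.1 in Pb, with Cd3g at 0.00 and Cd3d at 0.06. Cd3e, named after its values were seen, was above all controls in both Pb arrays. Its difference was 0.74 (95% interval 0.31 to 1.16, limma adjusted p = 0.622). Of the 5 T cell probes 4 were higher and 1 lower. Macrophage genes summed to 66.6 to 73.6 in controls and to 64.8 and 54.9 in Pb, with Marco at -0.53 and Vcam1 at 0.17.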

How the data were processed

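Spleen RNA of 6 mice was measured on CodeLink arrays, 1 colour (Cy5), per the labels. The authors deposited 1 linear intensity per probe, with array medians of 0.972 to 0.987. How these were scanned, background-corrected and scaled is not given in the sources used here. Precision is limited by the small number of arrays.

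Before log2, intensities not above 0 (151 to 711 per array) were set to the 1st percentile of that array's positive ones. Pb replicate 3 and array rows from 402 on were left out. Position effects were fitted as smooth surfaces with mgcv 1.9.3, using 40 (row), 6 (level) and 8 (column) basis functions. Each array was compared with the average of 4 arrays, the controls and Pb replicate 1, and its surface subtracted, 2 times over. Probes with a mean at or above the 30th percentile were tested with limma 3.58.1 in R 4.3.3 (two-sided, Benjamini-Hochberg over all 24464). The code was tested on simulated data. Neighbours are probes within 1 row and 3 columns.

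Probes were named from the platform annotation, and the 50 member genes all matched RefSeq by identifier. Members and lists were chosen with earlier results of these data known. The members named in full were the 4 brightest in controls of each role and up to 8 in each direction with groups apart by 1.5-fold. Alternatives covered correction, filter, scaling, variance model, samples and block.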

Additional observations from a re-analysis of the deposited data

How the results depend on the processing

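With 0.0613% of all tested probes past the adjusted threshold as reported, a count of 0 members was likely in advance. It held in 16 of 17 alternatives, which is a weak check. The exception was leaving out Pb replicate 1, with 4, and the range over arrays left out was 0 to 4. Member probes at an unadjusted p under 0.05 in limma, 2 as reported, were 10 without position correction. These 10 are 19.6% of the members tested, beside 14.7% of all probes tested. There were 4 with a pseudocount of 0.1 (8.16% beside 8.75%) and 4 with quantile normalization (8.16% beside 7.12%). All 6 arrays as deposited gave 6 (11.5% beside 7.01%). With 1 control left out there were 1 to 2, the 1 without control replicate 2 (2.08% beside 3.14%). Member probes with groups that do not overlap, 13 as reported, were 29 without position correction and 19 to 38 with 1 array left out. The 29 are 45.3% beside 37.2% of all probes. The 19, without control replicate 2, are 29.7% beside 35.0%, and the 38, without Pb replicate 1, are 59.4% beside 66.0%. The median member difference of 0.03 became 0.34 without position correction, -0.0281 with scaling to the 75th percentile, 0.16 in all 6 arrays as deposited, and -0.0056 to 0.0231 with 1 array left out. Probes past the adjusted threshold among all tested, 15 as reported, were 0 without position correction, 0 without the filter, 0 in all 6 arrays as deposited and 7 with array weights. With 1 array left out they ranged from 2 to 2805. The cause was not tested. Without Pb replicate 1 there were 2805 and without Pb replicate 2 there were 16. No label ties same-numbered animals to each other, and same-numbered arrays had r = 0.06 and 0.01 between their deviations. With the replicate block 7 probes passed, 1 member was at an unadjusted p under 0.05, and the median member difference was 0.0583. Scaling changed the balance of all probes at an unadjusted p under 0.05 from 951 higher and 811 lower to 743 and 1021 with the 75th percentile. Of the named member probes 11 of 26 changed sign without position correction and 10 in all 6 arrays as deposited. The count was 6 without Pb replicate 1 and 6 without Pb replicate 2. As no member was called in the reported comparison, these changes say nothing of called values. Dim probes limit what can be said of 15 members.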
